A study of Gallus gallus with 10 samples.

Results

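The genes described here are 8 members of the T-box family that mark parts of the mesoderm: TBXT, TBX6, EOMES, TBX1, TBX2, TBX3, TBX18 and TBX22. They were taken as the rows of the gene table with these symbols, and all 8 were found among its 25443 genes. The table holds 9 other T-box genes, which serve below for comparison. T-box genes encode transcription factors that share a DNA-binding domain, the T-box, first recognized in Brachyury (TBXT). In the vertebrate gastrula TBXT and TBX6 act in the primitive streak and in the cells that leave it to form notochord and paraxial mesoderm, whereas TBX1, TBX2, TBX3, TBX18 and TBX22 act later in the pharynx, heart, somites and face. In the tail end of the embryo, TBXT is part of the network that maintains neuromesodermal progenitors, the cells that give rise to both spinal cord and paraxial mesoderm.

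The study asked what changes in chicken embryos when Otx2, a transcription factor of the anterior epiblast, is expressed throughout the epiblast. Wild-type embryos of stage 4 to 5 were electroporated from the epiblast side and cultured outside the egg to stage 10 to 11, and poly-A RNA was sequenced from 10 libraries, each made from pooled tissue of 4 embryos. The Otx2 embryos received a vector with mouse Otx2 cDNA at 0.25 µg per µl under the broadly active CAG promoter (pCAGGS-mOtx2) together with pCAGGS-EGFP at 0.2 µg per µl, and the controls received pCAGGS-EGFP or no electroporation. By the methods of the study, a pCAGGS vector without insert took the place of pCAGGS-mOtx2 in control embryos. The midbrain-hindbrain portion was taken from control (CH) and Otx2 embryos (OH), with 2 libraries each. The sinus rhomboidalis, the open tail end of the neural plate, was taken from control embryos (CT), and the equivalent portion of the trunk from Otx2 embryos (OT), again with 2 libraries each. The posterior area opaca, an extraembryonic tissue, was taken once from control (CA) and once from Otx2 embryos (OA). All embryos of a library were pooled, so that the spread between duplicates is a spread between pools, and the p-values measure that spread only.

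The labels of the control trunk libraries disagree with each other. CT1 has a title that says it was not electroporated but a treatment entry with the EGFP vector, and CT2 has a treatment entry without electroporation. The counts of EGFP were 12 in CT1 and 213836 in CT2, and at least 26510 in each of the other 8 libraries. The counts thus go with the title of CT1 and against both treatment entries, and both libraries were used as CT. By these counts CT1 was not electroporated, unlike the CH, OH and OT libraries. In OT versus CT and CT versus CH, electroporation therefore cannot be fully told apart from exogenous Otx2 or tissue. The same holds where the trunk difference, OT versus CT, is set against the brain difference, OH versus CH. CT1 was deposited under the name NewCT1, and the labels do not say why. Mouse Otx2 had 0 counts in the 5 control libraries and between 1725 and 7748 in the 5 Otx2 libraries. Totals per library ranged from 28606038 to 40806402 counts, so that 3 counts, the limit taken for a count of 0, correspond to between 0.0735 and 0.105 CPM (counts scaled to a common library total). The intervals and limits given below cover counting error only. Of the 5 midbrain-hindbrain markers, EN1, EN2, GBX2, PAX2 and OTX2, all were at 1 TPM or more in CH and OH, with sums from 205.9 to 221.2 TPM, whereas the sums were 15.5 and 19.9 TPM in CT. In OT1 the sum was 25.0 TPM and in OT2 48.9 TPM. EN1, GBX2 and OTX2 were called higher in OT than in CT, against 4.29% of all genes tested. PAX2 was called lower, against 2.44%, and EN2 was not called. Of the 4 paraxial mesoderm markers, MSGN1 was called higher in CT than in CH, at 83.2 and 87.7 TPM in CT, PAX1 was called lower, with 0.0747 TPM in CT1 and 0 in CT2, and MEOX1 and TCF15 were not called.

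Levels are given as TPM, a relative transcript abundance that corrects each count for transcript length and library total. Tests were made on the counts of the 8 libraries of CH, OH, CT and OT with the quasi-likelihood test of edgeR and adjusted by Benjamini-Hochberg over 16611 genes, and genes with an adjusted p under 0.05 are referred to as called. All 8 T-box genes passed the filter on low counts. Because each library holds a mixture of cells, fewer cells of a type and less RNA per cell cannot be told apart in any of the values below.

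The T-box genes separated the control trunk from the control brain portion. Most of those that did so moved in the direction of the brain portion in the trunk of Otx2 embryos. The direction was not particular to the brain portion for every gene. By TPM, both area opaca libraries also lay below CT in TBXT and TBX6 and above it in TBX2, but not above it in TBX1. By counts, OA lay above CT in TBX1, at 2.77 CPM against 1.57 in CT1 and 0.719 in CT2, and CA, at 0.632 CPM, did not. For TBX18, OA at 0.444 TPM lay above CT1 at 0.0835 and CT2 at 0.240, and CA at 0.191 TPM did not lie above both. Between CT and CH, 7 of the 8 genes were called, against 7.78% of all genes tested. TBXT, TBX6 and TBX3 were higher in CT (3 of 8, against 2.91% of all genes), and TBX1, TBX2, TBX18 and TBX22 were lower (4 of 8, against 4.88%). Between OT and CT, 5 of the 8 genes were called, against 6.73% of all genes tested. TBXT and TBX6 were lower in OT (2 of 8, against 2.44%), and TBX1, TBX2 and TBX18 were higher (3 of 8, against 4.29%). OT versus CT and CT versus CH share the CT libraries, so that opposite signs in them are not independent. The 8 genes were also chosen with earlier results of these data known, so that these counts are a description. Between OH and CH, 0 of the 8 genes were called by edgeR, against 0.0361% of all genes, and 0 by DESeq2 and by limma. Of all 16611 genes tested, DESeq2 called 58 there, limma on log2(TPM + 1) 5 and limma on log2(TPM + 0.1) 7. In edgeR an unadjusted p under 0.05 was reached there by 1 of the 8, TBXT, and by 459 of all 16611 genes tested.

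**Figure D1:**
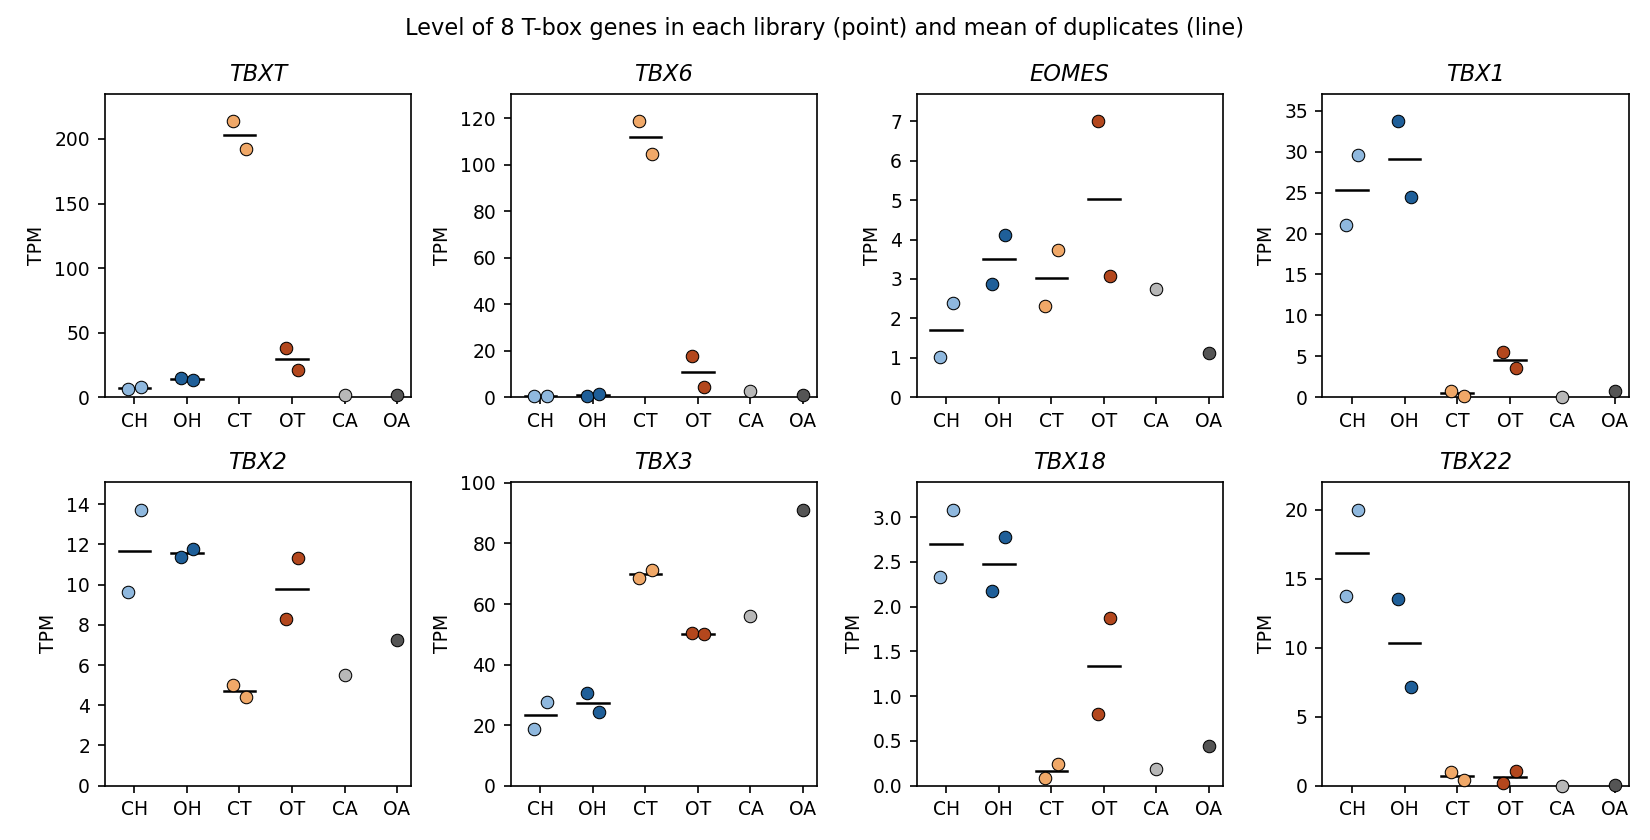
TPM of each T-box gene (vertical axes, each from 0) in the 10 libraries, grouped on the horizontal axis as midbrain-hindbrain (CH, OH), trunk (CT, OT) and posterior area opaca (CA, OA), where C is control and O is exogenous Otx2. Points are libraries and lines are means of duplicates. TBXT and TBX6 stand highest in CT, TBX1, TBX18 and TBX22 in CH and OH, and TBX3 in OA.

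TBXT, which encodes Brachyury (gene identifier 395782), spans bases 42537590 to 42545626 of chromosome 3 (GRCg7w). Its level was 213.8 TPM in CT1 and 192.1 TPM in CT2, whereas OT1 had 38.3 TPM and OT2 21.4 TPM. Among the brain libraries CH1 had 6.69 TPM, CH2 7.73, OH1 14.6 and OH2 13.4, and in the area opaca 2.02 in CA and 1.46 in OA. The groups did not overlap anywhere in the order CT, OT, OH, CH, CA, OA, and OT thus lay below both CT libraries but above every brain library. The mean fell from 203 ± 15.3 TPM in CT to 29.9 ± 12.0 TPM in OT (SD, n = 2), 6.80 times lower. The log2 fold change of OT against CT was -2.71 (standard error 0.28; edgeR adjusted p = 0.00724). The call was lost without CT1, the control library without EGFP, although the estimate stayed at -2.63 (edgeR adjusted p = 0.0578).

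In the brain portion TBXT had the opposite sign. The mean was 7.21 ± 0.740 TPM in CH and 14.0 ± 0.854 TPM in OH (SD, n = 2), and both OH libraries lay above both CH libraries. OH was higher than CH by 0.89 on the log2 scale (standard error 0.27), which was not called after adjustment over all genes (edgeR adjusted p = 1). The interaction term tested the log2 fold change of OT against CT minus that of OH against CH. It includes CT1, so that electroporation cannot be fully told apart from exogenous Otx2 in it. The term was called for 0.223% of all genes, with a positive value for 0.0843% and a negative value for 0.138%. TBXT was the only 1 of the 8 T-box genes called, with an interaction of -3.60 on the log2 scale (standard error 0.39; edgeR adjusted p = 0.0336). This call was lost without OH1 (edgeR adjusted p = 0.186), OH2 (0.177), CH1 (0.0699), CH2 (0.0644), CT1 (0.137) or CT2 (0.0778), while the value stayed between -4.14 and -3.16 over all 8 omissions. It was also lost with limma on log2(TPM + 1) (adjusted p = 0.0601) and with the replicate block (edgeR adjusted p = 0.0647).

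TBX6 (identifier 395792), on chromosome 15 from 8255798 to 8266715, encodes a factor of the presomitic mesoderm. In the mouse, embryos without Tbx6 form neural tubes in place of posterior somites. Whether the chicken gene of this row has the same role was not tested. The gene table describes this row as MGA, another T-box protein, but the RefSeq gene table gives the identifier the symbol TBX6 with the synonyms CH-TBX6L and Tbx6L, and MGA has a row of its own. TBX6 was at 118.7 TPM in CT1 and 104.7 TPM in CT2, whereas OT1 had 17.6 TPM and OT2 4.38 TPM. CH1 had 0.295 TPM, CH2 0.377, OH1 0.539 and OH2 1.30, from between 10 and 54 counts, and at 2.45 TPM in CA and 0.811 in OA. Its range over the libraries was 402-fold, and the control trunk was far above all other tissues.

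The mean of TBX6 was 112 ± 9.90 TPM in CT and 11.0 ± 9.37 TPM in OT (SD, n = 2), 10.1 times lower, and the SD in OT was nearly as large as the mean. The log2 fold change was -3.28 (standard error 0.64; edgeR adjusted p = 0.0330). It was -4.66 without OT1 and -2.54 without OT2, and called in both cases. The call was lost without OH1 (edgeR adjusted p = 0.0617), OH2 (0.0625), CH1 (0.0510), CT1 (0.168) or CT2 (0.0676), and in the fit of the 4 trunk libraries alone (0.0947). Against CH, the control trunk was higher by 8.31 on the log2 scale (standard error 0.86; edgeR adjusted p = 0.00347), and this call held under all 15 alternatives tried. OH differed from CH by 1.38 on the log2 scale (standard error 0.85; edgeR adjusted p = 1), and the interaction of -4.66 (standard error 1.04) was not called (edgeR adjusted p = 0.152).

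The duplicates of OT differed more for TBX6 than for TBXT. The ratio of TBX6 to TBXT in TPM was 0.555 in CT1, 0.545 in CT2, 0.460 in OT1 and 0.205 in OT2. In the brain portion it was between 0.0369 and 0.0970. Thus TBX6 made up a smaller part of the pair in OT2 than in OT1, and in OT1 the ratio was close to that of the control trunk. OT1 had 334.2 TPM of mouse Otx2 and OT2 had 529 TPM, and the summed level of 6 blood markers was 20498 TPM in the first and 2156 TPM in the other. The 6 neural tube markers, SOX2, SOX3, SOX1, PAX6, NKX6-2 and CDH2, summed to 91.5 TPM in OT1 and 226.8 TPM in OT2. The part of any of these in the difference between the duplicates was not tested.

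**Figure D2:**
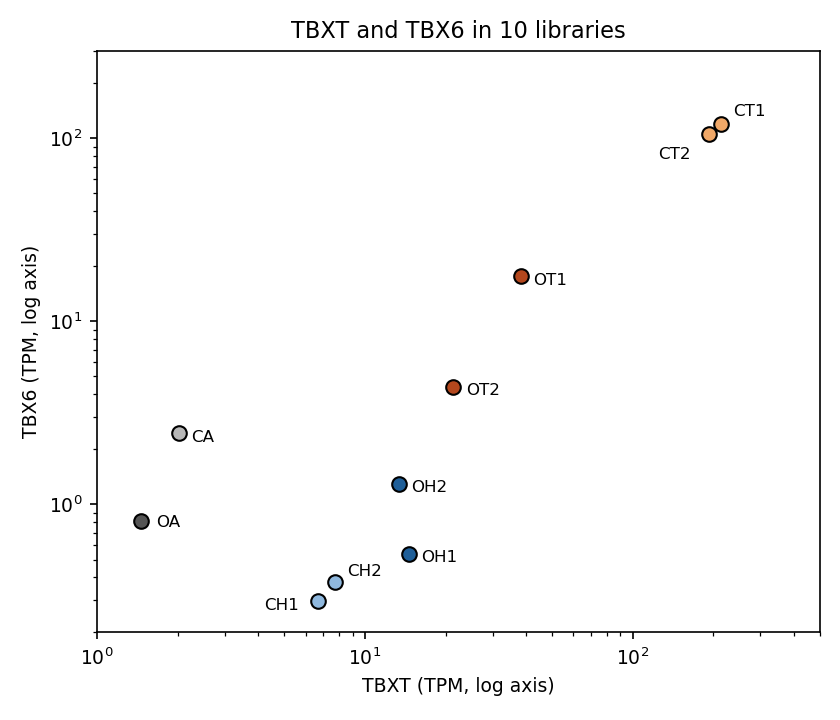
TPM of TBXT (horizontal log axis) against TPM of TBX6 (vertical log axis), with 1 labelled point per library. CT1 and CT2 lie together at the upper right, OT1 and OT2 lie between them and the brain libraries, and CA and OA have the lowest TBXT, with CA the 1 library in which TBX6 exceeded TBXT.

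EOMES (identifier 428443), on chromosome 2 from 38553599 to 38558344, is required in the mouse for the exit of mesoderm and endoderm from the streak. Its level was low everywhere, at 1.02 and 2.38 TPM in CH, 2.88 and 4.13 in OH, 2.32 and 3.74 in CT, 7.01 and 3.07 in OT, 2.75 in CA and 1.12 in OA. OH and CH did not overlap, whereas CT overlapped with CH, OH and OT. The log2 fold change was 0.78 in the trunk (standard error 0.53; edgeR adjusted p = 0.385) and 1.02 in the brain portion (standard error 0.54; edgeR adjusted p = 1). Neither difference was called under any alternative, and the trunk value was 0.02 without OT1.

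TBX1 (identifier 771328), on chromosome 15 from 812279 to 979025, acts in the pharyngeal mesoderm and endoderm and is known in humans from DiGeorge syndrome. CH1 had 21.0 TPM of TBX1, CH2 29.6, OH1 33.7 and OH2 24.4. In the trunk it was at 0.770 TPM in CT1 and 0.146 in CT2, from 45 and 28 counts, but at 5.49 in OT1 and 3.55 in OT2, from 442 and 336 counts. Both OT libraries thus lay above both CT libraries and below every brain library. The log2 fold change of OT against CT was 3.50 (standard error 0.41; edgeR adjusted p = 0.0107). Without CT1 it was 4.14 (edgeR adjusted p = 0.0427), the call held in all 8 omissions of a library, and it was lost in the fit of the 4 trunk libraries alone (edgeR adjusted p = 0.0600). CT was lower than CH by a log2 fold change of -5.81 (standard error 0.43; edgeR adjusted p = 0.00141), and of -6.45 without CT1. The OH and CH libraries overlapped (log2 fold change 0.18, standard error 0.33; edgeR adjusted p = 1), and the interaction of 3.31 (standard error 0.52) was not called by edgeR (adjusted p = 0.0810), although the DESeq2 Wald test called it (adjusted p = 3.03e-08).

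TBX2 and TBX3 are closely related genes whose proteins act as repressors, in the heart among other places. TBX2 (identifier 373990), on chromosome 19 from 7852185 to 7861563, was at 9.63 and 13.7 TPM in CH, 11.4 and 11.8 in OH, 5.02 and 4.43 in CT, 8.29 and 11.3 in OT, 5.50 in CA and 7.25 in OA. It was higher in OT than in CT by 1.08 on the log2 scale (standard error 0.22; edgeR adjusted p = 0.0367). This call depended on single libraries. It was lost without OH1 (edgeR adjusted p = 0.0871), OH2 (0.0877), OT2 (0.0715), CT1 (0.171) or CT2 (0.106), with both limma fits (adjusted p = 0.0789 and 0.0631), and in the fit of the 4 trunk libraries alone (edgeR adjusted p = 0.130). CT was below CH by a log2 fold change of -1.30 (standard error 0.22; edgeR adjusted p = 0.0161), a call lost without CH2 (0.0708), CT1 (0.0738) or CT2 (0.0902).

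TBX3 (identifier 374202), on chromosome 15 from 11934477 to 12237366, had the smallest relative change in the trunk after TBX22 among the 8 genes. It was at 68.5 and 71.2 TPM in CT and at 50.4 and 50.05 TPM in OT, and the groups did not overlap. Its log2 fold change of -0.42 (standard error 0.18) was not called (edgeR adjusted p = 0.186). In the brain portion it was at 18.8 and 27.7 TPM in CH and at 30.5 and 24.2 TPM in OH, which overlapped (log2 fold change 0.23, standard error 0.18; edgeR adjusted p = 1). TBX3 was 3.01 times higher in CT than in CH by mean TPM (log2 fold change 1.59, standard error 0.18; edgeR adjusted p = 0.00478), and the call held under all 15 alternatives. Both area opaca libraries were at high levels, with 56.2 TPM in CA and 91.2 TPM in OA.

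TBX18 (identifier 395104), on chromosome 3 from 76727706 to 76753585, is known in the mouse from the anterior parts of the somites and from the venous pole of the heart. It was at 2.33 and 3.09 TPM in CH, 2.18 and 2.78 in OH, 0.0835 and 0.240 in CT, and 0.805 and 1.88 in OT. Both OT libraries lay above both CT libraries and below all 4 brain libraries. The log2 fold change of OT against CT was 3.01 (standard error 0.57; edgeR adjusted p = 0.0314). It was 3.96 without CT2 and still called. The call was lost without OH1 (edgeR adjusted p = 0.0712), OH2 (0.0724), OT2 (0.0614, with a value of 2.36) or CT1 (0.160), with limma on log2(TPM + 1) (0.0743), and in the fit of the 4 trunk libraries alone (edgeR adjusted p = 0.117). CT was below CH by a log2 fold change of -3.99 (standard error 0.58; edgeR adjusted p = 0.00996), which was -4.95 without CT2.

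TBX22 (identifier 373895), on chromosome 4 from 1497914 to 1503099, is known in humans and mice from the development of the palate. It differed from TBX1 and TBX18 in the trunk. It was at 1.00 TPM in CT1, 0.380 in CT2, 0.171 in OT1 and 1.07 in OT2, and the trunk groups overlapped (log2 fold change -0.13, standard error 0.79; edgeR adjusted p = 0.934). The sign of this value turned without OT1 (0.63) or CT1 (0.69). Among the brain libraries CH1 had 13.8 TPM, CH2 20.0, OH1 13.5 and OH2 7.19. The OH libraries lay below the CH libraries, and the log2 fold change of -0.72 (standard error 0.68) was not called (edgeR adjusted p = 1). CT was below CH by a log2 fold change of -4.59 (standard error 0.81; edgeR adjusted p = 0.0186), a call lost without CH1 (0.0544), CH2 (0.0617), CT1 (0.0706, with a value of -5.41) or CT2 (0.102).

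Of the 8 genes, 4 had groups that did not overlap between OH and CH, namely TBXT, TBX6 and EOMES above and TBX22 below. Of all genes tested, 32% had TPM values that did not overlap between OH and CH, in either direction. None of the 4 genes was called under any of the 15 alternatives.

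**Figure D3:**
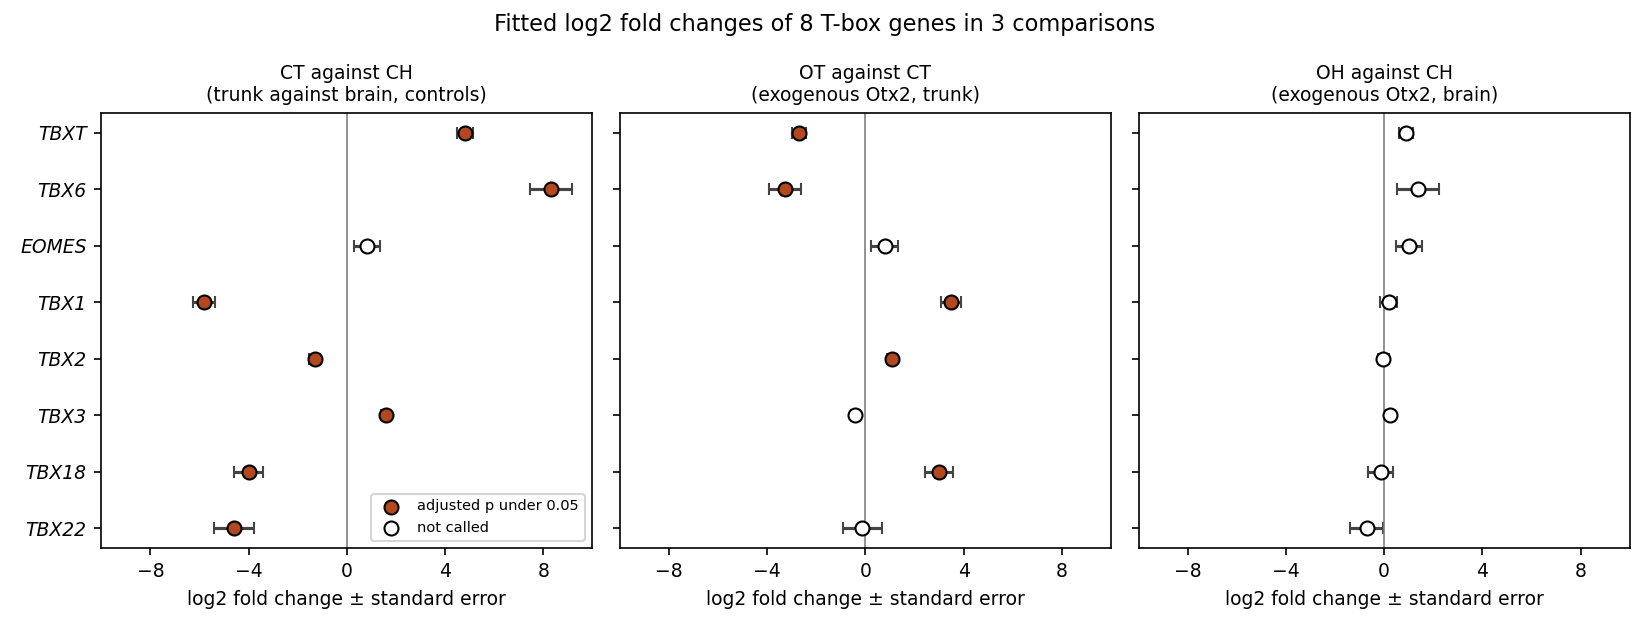
Log2 fold changes (horizontal axes) of the 8 T-box genes (rows) with standard errors as bars, for CT against CH, OT against CT and OH against CH. Filled points had an adjusted p under 0.05, which was the case for 7, 5 and 0 genes. CT against CH and OT against CT share the CT libraries.

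Added together, the 8 genes were at 410.2 TPM in CT1 and 377.0 TPM in CT2, whereas OT1 reached 128.1 TPM and OT2 96.7 TPM. The sums of OT were in the range of the brain and area opaca libraries, which lay between 69.1 and 109.4 TPM, or just above it. TBXT contributed 52.1% and 51.0% of the sum in CT, 29.9% and 22.1% in OT, and between 7.39% and 15.0% in the brain portion. TBX3 contributed 16.7% and 18.9% in CT but 39.4% and 51.8% in OT, and it dominated the area opaca with 81.3% in CA and 88.4% in OA. TBX1 and TBX3 were the leading pair in CH and OH, where TBX1 contributed from 27.4% to 30.9%. The share of TBX3 in OT thus grew while its own level was not called different, and the sum of the 8 genes was smaller.

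**Figure D4:**
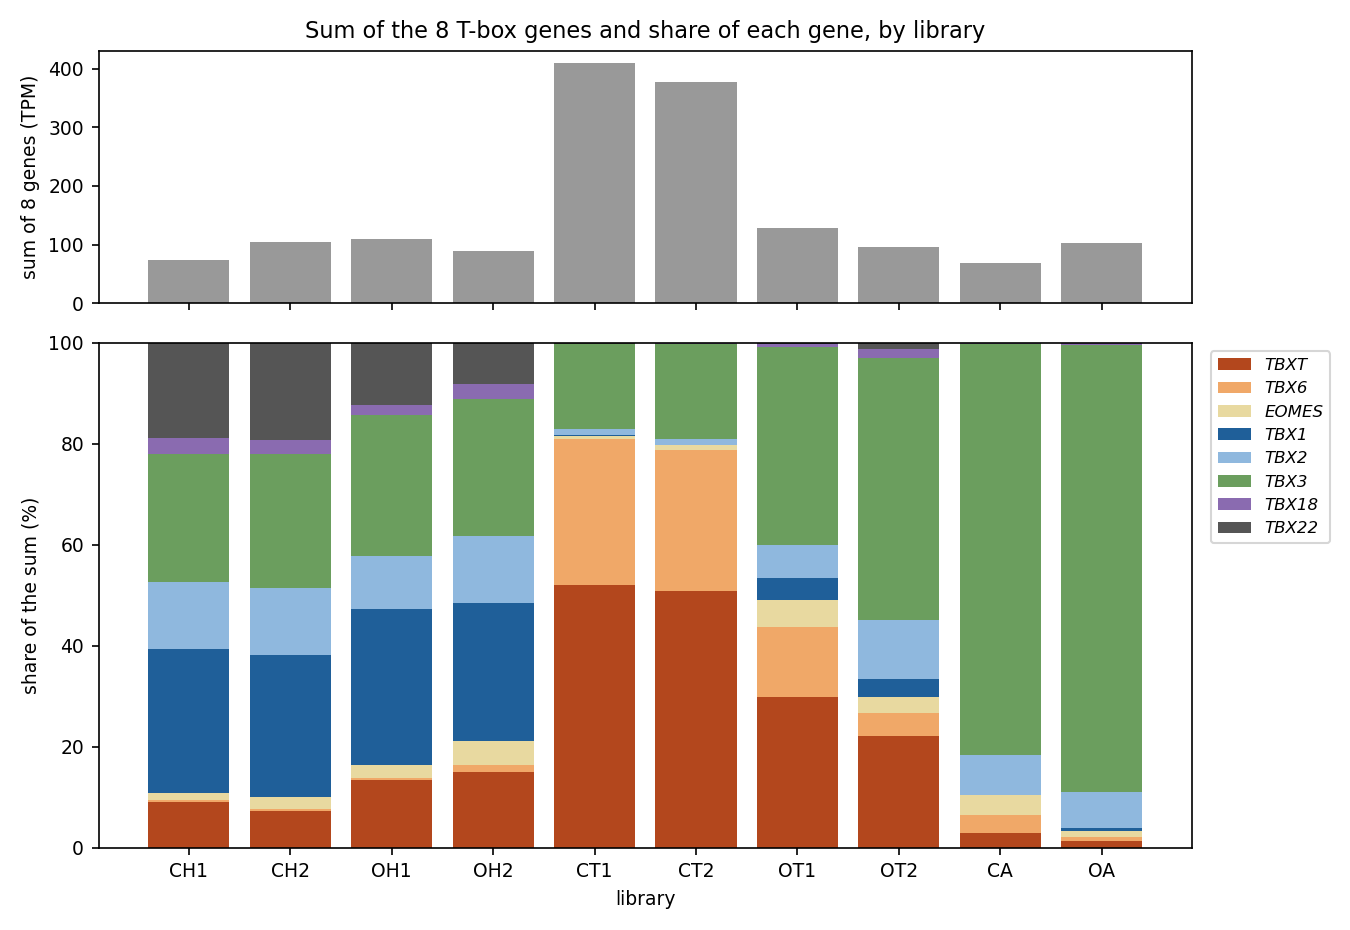
Upper panel, sum of the TPM of the 8 T-box genes in each library. Lower panel, share of each gene in that sum in percent. TBXT and TBX6 made up most of the sum in CT1 and CT2, TBX3 was the largest part in OT1, OT2, CA and OA, and CH and OH held TBX1, TBX2, TBX3 and TBX22 in sizable shares.

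In the area opaca there was 1 library per group, so that the values describe these libraries and no test was made. TBXT had 106 counts in CA and 84 in OA, which are 3.52 CPM (95% Poisson interval 2.89 to 4.26) and 2.06 CPM (1.64 to 2.55). TBX6 was at 3.06 CPM in CA (2.47 to 3.75) and 0.907 CPM in OA (0.638 to 1.25). TBX1 was at 0.632 CPM in CA (0.380 to 0.986) and 2.77 CPM in OA (2.28 to 3.33). EOMES was at 5.15 CPM in CA (4.37 to 6.03) and 1.89 CPM in OA (1.49 to 2.36). TBX3 was at 139.4 CPM in CA (135.2 to 143.7) and 202.9 CPM in OA (198.6 to 207.3), and TBX18 at 0.731 CPM in CA (0.458 to 1.11) and 1.49 CPM in OA (1.14 to 1.92). Thus TBXT, TBX6 and EOMES were lower and TBX1, TBX3 and TBX18 were higher in OA beyond counting error alone, and the intervals of TBX2 overlapped. EOMES and TBX3 had the opposite sign in OT against CT, where neither was called. TBX22 had 0 counts in CA, where 3 counts correspond to 0.0997 CPM, and 4 counts in OA.

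The deposited transcript values describe how the counts of each gene were divided. TBX2, TBX6, TBX18 and TBX22 had a single transcript each. For TBXT, a transcript of 3170 bases took between 71.4% and 96.8% of the counts of a library, and a transcript of 2016 bases took between 2.85% and 28.6%. For TBX3, a transcript of 4380 bases took at least 84.5%, with 12 transcripts listed. TBX1 was divided among 8 transcripts, none of which took a constant share, and 1 of 21753 bases took all 19 counts in CA. The TPM of TBX1 therefore depends on this division more than that of the other genes, whereas the tests used its counts. TBX1, TBX2 and TBX3 each overlap 2 other annotated genes, and the strand setting of the counting is not given in the sources used here, so that reads of overlapping genes may not be fully separated.

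Of the 9 other T-box genes, 5 were tested. In the trunk edgeR called 1 higher, TBX5, against 4.29% of all genes, and 0 lower, against 2.44%. TBX5, a gene of the heart field and the forelimb field, lies on chromosome 15 from 12329351 to 12370319, the same chromosome as TBX3. It had 0 counts in CT1, 4 in CT2, 332 in OT1 and 510 in OT2, which are 8.34 and 11.3 TPM in the latter pair. The fitted log2 fold change was 7.77 (standard error 1.24; edgeR adjusted p = 0.0199), which depends on the prior count because CT was close to 0. Among the brain libraries CH1 had 3.79 TPM, CH2 24.9, OH1 7.15 and OH2 16.4, so that the duplicates differed more than the groups. TBX20, another gene of the heart, was at 3.55 and 9.42 TPM in CT and at 14.5 and 18.6 TPM in OT (log2 fold change 1.38, standard error 0.64), and was not called (edgeR adjusted p = 0.215). MGA, which is broadly expressed, was between 8.51 and 22.8 TPM in all libraries, and TBX10 had 0 counts in each. TBX10, TBX15, TBX21 and TBR1 were removed by the filter on low counts.

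The level of TBX1, TBX2, TBX18 and TBX5 in the trunk can be set beside markers of the heart. Of the 4 heart markers listed, MYL7 was not found under that symbol, and TNNT2, NKX2-5 and GATA4 were measured. Their sum was 5.87 TPM in CT1 and 12.1 TPM in CT2, whereas OT1 had 249.7 TPM and OT2 267.3 TPM, with none at 0. TNNT2, a sarcomere protein of the heart, was at 0.827 and 1.32 TPM in CT and at 164.7 and 207.1 TPM in OT, and it rose by 6.59 on the log2 scale (standard error 0.92; edgeR adjusted p = 0.0154). TNNT2 and NKX2-5 were called higher in OT (2 of 3, against 4.29% of all genes tested). GATA4 was not called (log2 fold change 2.86, standard error 0.70; edgeR adjusted p = 0.0549). The brain portion held these genes as well, with sums of 100.5 TPM in CH1 and 585.2 in CH2, so that CH1 and CH2 differed in heart markers as they did in TBX5. The yolk sac markers APOA1, TTR, APOB, AFP and FGB summed to 2241 and 5826 TPM in CT and to 13070 and 9353 TPM in OT, against at least 34648 in the area opaca. In the trunk 0 of the 5 were called by edgeR, DESeq2 or limma. Of all 16611 genes tested, edgeR called 1118 there, DESeq2 2755 and the limma fits 926 and 1019. In edgeR 2 of the 5 had an unadjusted p under 0.05, as did 4460 of all 16611 genes tested. The part of heart or yolk sac tissue in the higher TBX1, TBX2 and TBX18 of OT was not tested.

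The 6 genes that act with TBXT in the tail end of the embryo were followed as a list. This list, like the others, was chosen with earlier results of these data known. Its calls beside the share of all genes are therefore a description only. WNT3A and FGF8 are signals, NKX1-2 is a transcription factor of neuromesodermal progenitors, CDX2 and CDX4 are posterior homeobox factors, and AXIN2 is a target of Wnt signaling. All 6 were tested, and edgeR, whose calls are given for this and the next lists, called 4 lower in OT, against 2.44% of all genes tested, and 0 higher, against 4.29%, with a median log2 fold change of -2.44 against 0.03 for all genes tested. FGF8 was at 159.4 and 130.9 TPM in CT and at 24.3 and 4.90 TPM in OT (log2 fold change -3.24, standard error 0.66; edgeR adjusted p = 0.0364). WNT3A was at 29.1 and 31.5 TPM in CT and at 14.1 and 6.78 TPM in OT (log2 fold change -1.48, standard error 0.33; edgeR adjusted p = 0.0457). CDX4 and AXIN2 were also called. NKX1-2 was at 50.8 and 33.8 TPM in CT and at 5.26 and 0.479 TPM in OT. It was not called (log2 fold change -3.81, standard error 0.95; edgeR adjusted p = 0.0578). CDX2 was at 119.2 and 132.6 TPM in CT and at 110.1 and 31.4 TPM in OT, which differed between the OT duplicates and was not called. OT2 was lower than OT1 in all 6 genes, as it was for TBXT and TBX6. Between CT and CH, 5 of the 6 were called higher in CT, against 2.91% of all genes. By edgeR, DESeq2 and limma 0 of the 6 were called in OH versus CH. Of all 16611 genes tested, edgeR called 6 there, DESeq2 58 and the limma fits 5 and 7. In edgeR 1 of the 6 reached an unadjusted p under 0.05 there, as did 459 of all 16611 genes tested.

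Among the primitive streak genes, 9 of 10 were tested in the trunk, of which 2 were called lower, against 2.44% of all genes, and 2 higher, against 4.29%, in OT, with a median log2 fold change of -1.90. LEF1, a mediator of Wnt signaling, fell from 155.4 and 127.4 TPM in CT to 35.1 and 34.5 TPM in OT, and SP8 was also called lower. CDX1 was at 2.29 and 8.40 TPM in CT and at 47.3 and 30.0 TPM in OT, and it was called higher. CDX1 was also at 27.8 TPM in CA and 66.4 TPM in OA. GSC, a gene of the organizer and prechordal plate, was listed at 0 in both CT libraries and at 0.362 and 1.14 TPM in OT, and was called higher. Its fitted log2 fold change of 7.07 (standard error 1.24) depends on the prior count because CT was at 0. EVX1 was at 162.4 and 139.3 TPM in CT and at 27.5 and 1.02 TPM in OT. WNT8A was at 77.9 and 96.2 TPM in CT and at 13.4 and 2.82 TPM in OT. Neither was called (edgeR adjusted p = 0.118 and 0.0511).

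Of 10 presomitic mesoderm genes in the table, 7 were tested, and 2 were called lower and 0 higher in OT, against the same 2.44% and 4.29% of all genes, with a median log2 fold change of -1.34. DLL1, a ligand of Notch, was at 85.9 and 70.9 TPM in CT and at 18.9 and 6.64 TPM in OT. MSGN1, which acts downstream of Wnt signaling and TBX6 in the mouse, was at 83.2 and 87.7 TPM in CT and at 13.0 and 0.805 TPM in OT. The duplicates of OT lay far apart, and MSGN1 was not called (log2 fold change -3.56, standard error 1.09; edgeR adjusted p = 0.0989). Of 8 somite genes tested, edgeR called 1 higher in OT, against 4.29% of all genes, and 0 lower, against 2.44%. This was PAX1, at 4.13 and 4.88 TPM in OT and at 0.0747 TPM and 0 in CT. PAX1 was higher still in the brain portion, at 11.2 and 15.2 TPM in CH and at 18.4 and 18.4 TPM in OH. The median log2 fold change of the somite list was 0.91. DESeq2 called 4 of them, against 2755 of all 16611 genes tested, and each limma fit 2, against 926 and 1019. Of the 6 notochord genes, CHRD and NOTO were called lower, against 2.44% of all genes, and FOXA2 was called higher, against 4.29%. SHH was not called. The 3 endoderm markers, FOXA2, SOX17 and GATA6, summed to 24.9 and 43.0 TPM in CT and to 122.0 and 80.5 TPM in OT, with none at 0. SOX17 (log2 fold change 1.60, standard error 0.60) and GATA6 (1.83, standard error 0.44) were not called by edgeR (adjusted p = 0.144 and 0.0539). The DESeq2 Wald test called all 3 endoderm markers, against the same 2755 of all 16611 genes tested. The part of endoderm in the T-box values of OT was not tested.

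Of the 9 heart and pharyngeal mesoderm genes tested, NKX2-5 and TNNT2 were called higher in OT, against 4.29% of all genes, and BMP4, FGF10 and HAND2 were called lower, against 2.44%, with a median log2 fold change of -0.26. Thus TBX1 rose together with some genes of this list and not with others. FGF10, a target of TBX1 in the mouse heart field, was at 23.6 and 19.9 TPM in CT and at 6.06 and 2.34 TPM in OT. In the brain portion 0 genes of the streak, presomitic, somite, notochord and heart lists were called by edgeR, DESeq2 or limma between OH and CH. Of all 16611 genes tested, edgeR called 6 there, DESeq2 58 and the limma fits 5 and 7. In edgeR an unadjusted p under 0.05 was reached by 3, 1 in the streak list and 2 in the notochord list, and by 459 of all 16611 genes tested. The interaction term was called for LEF1 and CHRD, with a negative value as for TBXT, and for PAX1, with a positive value.

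**Figure D5:**
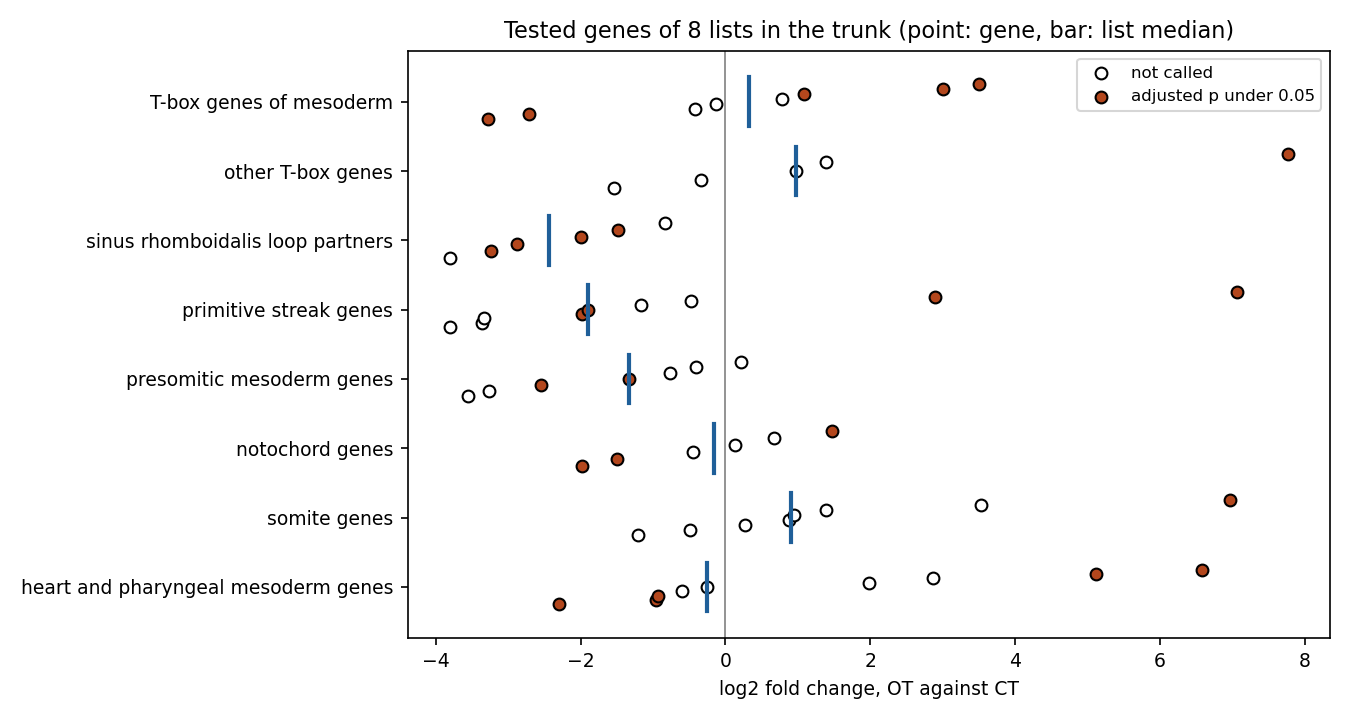
Log2 fold change of OT against CT (horizontal axis) for the tested genes of 8 lists (rows). Each point is a gene, filled where the adjusted p was under 0.05, and the vertical bars mark list medians. The medians of the loop, streak and presomitic lists lie at -2.44, -1.90 and -1.34.

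The patterns of TBXT and TBX6 over the 10 libraries were compared with those of 11962 genes that reached 5 TPM in at least 1 library, by the Pearson correlation of log2(TPM + 1). The libraries share tissues and controls, so that these values are a description. The genes most like TBX6 were WNT8A (r = 0.996), LRTM2 (0.985), an uncharacterized gene (0.981), MSGN1 (0.981) and TUSC5 (0.980). Of these, 3 were again among the closest 5 in the 8 libraries without the area opaca. Those closest to TBXT included TKTL1 (0.989), CHST15 (0.987), KCNS3 (0.974) and DUSP5 (0.970), and 0 of its closest 5 were again among the closest 5 without the area opaca. The correlation ignores the size of a change. TKTL1 was at 698.0 and 633.8 TPM in CT and at 517.1 and 483.9 TPM in OT. CHST15 was at 141.3 and 125.8 TPM in CT and at 30.6 and 19.1 TPM in OT. Between the 2 genes themselves r was 0.886 over 10 libraries. TBX6 had negative values with TBX1 (-0.62), TBX2 (-0.74), TBX18 (-0.70) and TBX22 (-0.57).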

How the data were processed

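The authors mapped reads of 10 libraries to the GRCg7w chicken genome with mouse Otx2 and EGFP added, and quantified transcripts with StringTie; the aligner, versions and strand setting are not given in the sources used here. Deposited read counts per gene are whole numbers without normalization. Deposited TPM values were scaled by the authors for transcript length and library total. The authors also deposited 20 columns of FPKM (fragment counts scaled for length and total), not used here. Gene identifiers were matched to the GRCg7b gene table for names (23112 of 25443), and positions refer to GRCg7w as given with the deposited transcripts.

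Counts of the 8 libraries with duplicates were fitted in edgeR 4.0.16 (R 4.3.3) with 1 coefficient per group, TMM factors (0.971 to 1.03) and the default low-count filter, which kept 16611 genes and removed 8832. The common dispersion was 0.0781 (biological coefficient of variation 27.9%), with 4 residual degrees of freedom. The test gives no standard error. The standard errors shown were computed as the absolute log2 fold change divided by the square root of the F statistic of the test. The area opaca libraries entered no test. The fit was also run on counts simulated with the common dispersion for every gene, and the outcome is not reported here. That run does not cover genes with a larger spread or changes at low counts. Alternatives were DESeq2 1.42.0 (Wald test), RLE factors, no filter, limma 3.58.1 on log2(TPM + 1) and log2(TPM + 0.1), the replicate number as a block, only the libraries of a comparison, and omission of each library. Summaries used Python 3.11.15 with pandas 2.3.3 and numpy 2.4.6, and plots matplotlib 3.10.9. Named genes are the 8 T-box genes, the other T-box genes, the genes of the lists, and the 5 genes most like TBXT and TBX6, of which 1 is not reported here. The T-box genes and all lists were chosen with earlier results of these data known. Sequences were not analysed here.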

Additional observations from a re-analysis of the deposited data

Results flagged for a closer look

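By the interaction term, the difference of OT from CT in TBXT was unlike the difference of OH from CH. CT1, the control library without EGFP, enters this term. Electroporation therefore cannot be fully told apart from exogenous Otx2 in it. The term was -3.60 on the log2 scale (standard error 0.39; edgeR adjusted p = 0.0336). Both OT libraries lay below both CT libraries, and both OH libraries lay above both CH libraries, although 32% of all genes tested also had no overlap between OH and CH. The term was called in 6 of 14 alternatives and was lost in 6 of the 8 omissions of a library, with the replicate block (edgeR adjusted p = 0.0647) and with limma on log2(TPM + 1) (adjusted p = 0.0601).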

How the results depend on the processing

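In the fit of all 8 libraries, 1118 genes and 5 T-box genes were called in OT versus CT, 6 and 0 in OH versus CH, 37 and 1 in the interaction, and 1293 and 7 in CT versus CH. The DESeq2 Wald test called 2755, 58, 788 and 2449 genes in these comparisons, and 5 T-box genes in the interaction. With only the 4 libraries of a comparison, OT versus CT had 135 calls, 1 of them a T-box gene, and OH versus CH had 0. With limma on log2(TPM + 1), 3 T-box genes were called in OT versus CT, and the interaction had 3 calls with 0 T-box genes. With log2(TPM + 0.1) the interaction had 8 calls. The replicate block left 0 calls in the interaction, 0 T-box genes among them, and 878 calls and 5 T-box genes in OT versus CT. Same-numbered libraries of different groups had correlated deviations between -0.155 and 0.143, and the labels give no reason to pair them, so that they share only a number.

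On omission of single libraries, the calls ranged from 53 (without CT1) to 1039 in OT versus CT, with 1 to 5 T-box genes, and were 290 without OH2, 293 without OH1 and 567 without CT2. They ranged from 0 to 29 in OH versus CH, with 0 T-box genes, from 0 to 258 in the interaction, with 0 to 2 T-box genes, and from 416 (without CT1) to 1785 in CT versus CH. The T-box calls of OT versus CT numbered 2 without OH1 or OH2, and 3 without OT2 or CT2. Signs turned for uncalled values near 0. TBX22 in the trunk ranged from -1.85 to 0.69. In the brain portion TBX1 ranged from -0.074 to 0.40, TBX2 from -0.20 to 0.17 and TBX18 from -0.32 to 0.0089, and for TBX2 limma gave 0.0079 (pseudocount 1) and 0.010 (pseudocount 0.1). The interaction ranged from -1.002 to 0.29 for EOMES and from -1.13 to 1.41 for TBX22. The cause of these changes was not tested, except that each fit without a library has fewer residual degrees of freedom. All alternatives of CT versus CH left TBXT, TBX6, TBX1, TBX3 and TBX18 called.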
